A study of Mus musculus with 8 samples.

Results

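REST and its corepressors are 9 genes: Rest, the CoREST scaffolds Rcor1, Rcor2 and Rcor3, the CoREST subunit Hmg20b, the Sin3 scaffolds Sin3a and Sin3b, and the small phosphatases Ctdsp1 and Ctdsp2. They were taken by name, with every probe paired with them in the platform table. Of these 9 genes, 8 had a probe, among 16593 genes with a probe in all, and no probe was paired with Rcor3 in that table. The 8 genes had 11 probes of the 25697 on the array. A total of 8 probes, of 6 of the genes, were bright enough to test, among 7407 genes tested.

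The data were Illumina MouseRef-8 v2.0 bead arrays of RNA from C57BL/6 mouse cells grown in culture. The study set neural stem cells (NSCs, 5 arrays) beside the neurons made from them (3 arrays), to ask how expression differs between a stem cell and its differentiated progeny. The NSCs came from embryonic stem cells grown as a monolayer and were kept in Euromed-N with N2, FGF2 and EGF. For the neurons, such cells spent 4 days in N2B27 and were then replated into Neurobasal with B27. They were collected by fluorescence-activated sorting on RedStar, a red protein under the Tau (Mapt) promoter, so the group holds cells that had switched that promoter on. No genotype other than the strain was given for the NSCs. Nothing in the labels says that the arrays of a group came from separate cultures, so every p-value rests on the spread of these arrays, which may be technical.

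REST is a zinc-finger repressor that binds a DNA element called RE1, near many genes of neurons. Its carboxy-terminal part binds CoREST, which carries the histone demethylase Kdm1a and the deacetylases Hdac1 and Hdac2, and its amino-terminal part binds Sin3, a second deacetylase scaffold. Small phosphatases of the carboxy-terminal domain (CTD) of RNA polymerase II join it at RE1 elements, and the repressor is known to be lost as neural progenitors become neurons.

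The arrays had median signals of 80.3 to 84.7, and 36.5% to 39.7% of probes were detected. The correlation of log2 signals over the probes, which share each array and are no replicates, was 0.993 to 0.994 within each group and 0.937 to 0.938 between groups. All arrays shared 1 chip, with the NSCs at the first 5 positions, so position, culture medium and sorting cannot be told apart from cell type. Of 8 neuron markers listed, all 6 tested were higher in neurons. Of these, 4 (Mapt, Dcx, Rbfox3 and Gap43) were detected on neuron arrays alone, so only the neurons made them bright enough to test and they had to differ. Mapt is also the gene whose promoter was used for sorting. Tubb3 and Stmn2 were not above background on any array. Of 10 NSC markers listed, 6 were tested. Tnc (-3.59), Fabp7 (-1.65) and Vim (-0.59) were lower in neurons, Egfr (0.61) and Sox2 (0.37) were higher, and Nes did not pass (-0.16), while Sox1, Pax6, Nr2e1 and Msi1 were not above background on any. The summed level of the 7 astrocyte markers was 14676 to 16213 on NSC arrays and 3771 to 4432 on neuron arrays. Most of that sum is the Slc1a3 probe, with mean log2 values of 13.77 in NSCs and 11.95 in neurons. Of the 4 tested, Slc1a3 (-1.82), Gja1 (-5.08) and Slc1a2 were lower in neurons, and Aldh1l1 did not pass (-0.33, limma adjusted p = 0.0545). Gfap and Aqp4 were not above background, and S100b was detected on too few arrays to test. The summed level of the 6 oligodendrocyte-lineage markers with a probe was 9762 to 12961 in NSCs and 15254 to 16521 in neurons. Mbp was not above background. In that list Pdgfra and Gpr17, detected on no NSC array and all 3 neuron arrays, were at least 4.04-fold and 8.25-fold higher in neurons. Olig2 (0.85) and Olig1 (0.51), whose probe makes up most of the sum, were higher as well, and Opalin was lower (-0.77). The part of these other cell types in the results below was not tested.

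Among the 6 members tested, 2 were higher in neurons (Rcor2 and Ctdsp2), 2 were lower (Hmg20b and Rcor1) and 2 did not pass the test (Sin3a and Ctdsp1). A call means an adjusted p below 0.05 in limma, with the Benjamini-Hochberg adjustment over all 10499 tested probes. By that rule 64.6% of all tested genes were called, 35.4% higher and 29.2% lower, so the 66.7% among the members is close to the background. The median neuron minus NSC difference of the 6 members was 0.01 on the log2 scale, beside 0.06 for all tested genes. In these bulk samples, fewer cells of a type and less RNA per cell cannot be told apart.

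**Figure D1:**
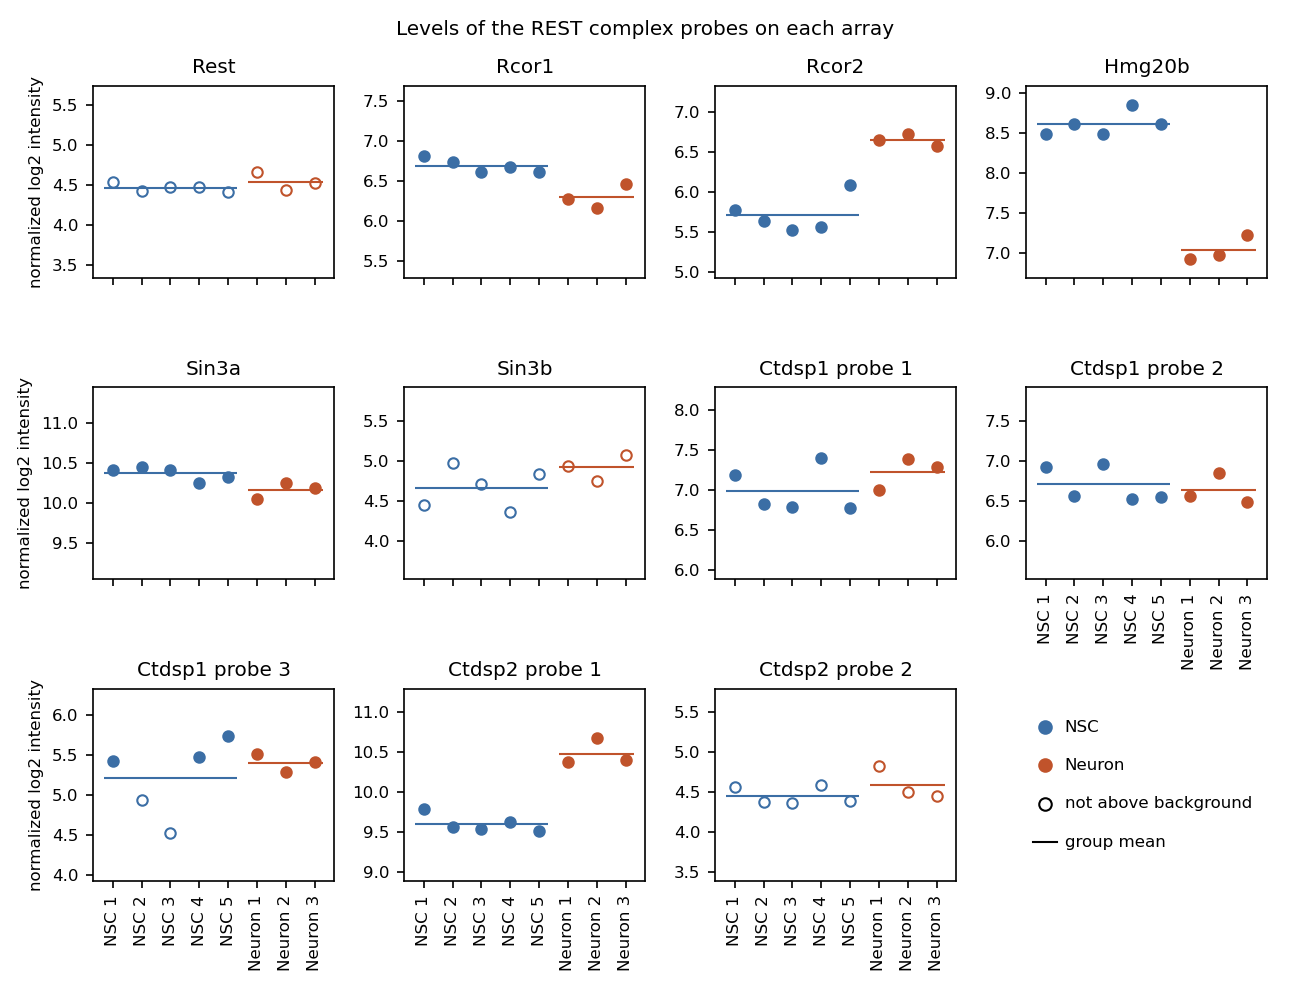
Normalized log2 intensity (vertical axis) of each member's probe on every array, with NSCs in blue and neurons in orange, a line at each group's mean and open circles where the probe was not above background. Hmg20b, Rcor2, Ctdsp2 and Rcor1 show groups that do not overlap, and the Rest and Sin3b probes lie near the background on every array.

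The transcript of the repressor itself was not measurable with this array. Rest has 1 probe, whose signals were 75.4, 70.7, 76.6, 75.7 and 72.6 in NSCs and 80.5, 74.4 and 75 in neurons, all near the median signal of an array. Its detection p, the share of negative control probes at least as bright, lay between 0.174 and 0.583, and no array reached the threshold of 0.01. The probe was not well above background on any array, which gives no level for either group and says nothing of a difference. A probe can stay at background where another of the same gene is bright, as for Ctdsp2 below. With no filter on dim probes the normalized log2 values were 4.42 to 4.54 in NSCs and 4.44 to 4.66 in neurons, overlapping, with a difference of 0.08 (limma adjusted p = 0.577).

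The CoREST scaffolds moved in opposite directions, Rcor2 up and Rcor1 down. Rcor2 encodes CoREST2, the form best known from the developing nervous system. Its normalized log2 intensities were 5.77, 5.63, 5.53, 5.56 and 6.09 in NSCs and 6.65, 6.72 and 6.58 in neurons. Every neuron array lay above every NSC array, with a gap of 0.48 between the groups and NSC 5 the highest of the stem cells. The means were 5.72 ± 0.23 (SD, n = 5) and 6.65 ± 0.07 (SD, n = 3), a difference of 0.93 (SE 0.13, 95% interval 0.64 to 1.22, limma adjusted p = 9.95e-05), or 1.91-fold (1.56 to 2.34). This rise was larger than the signed difference of 87.9% of tested genes. The raw signals were dim, 102.1 to 125.2 in NSCs and 154.5 to 181.8 in neurons, so the size depends on how background is removed. It was 0.51 in the authors' deposited log2 values, which had no background correction, and 0.63 with a larger offset, and it was called under all 27 alternatives.

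Rcor1 encodes CoREST1, the scaffold first found with REST. Its log2 intensities were 6.81, 6.75, 6.61, 6.67 and 6.62 in NSCs and 6.28, 6.17 and 6.47 in neurons. The groups did not overlap, as was so for 61.1% of all tested genes. The means were 6.69 ± 0.09 (SD, n = 5) and 6.31 ± 0.15 (SD, n = 3), a difference of -0.39 (SE 0.10, 95% interval -0.61 to -0.16, limma adjusted p = 0.00642), or 1.31-fold lower. That is a modest change here, since 26.0% of tested genes had a lower signed difference. The call was lost with median scaling of the arrays, where the difference was -0.19 (adjusted p = 0.116); relative to the median of all genes it was -0.45 in the main setting and -0.42 with median scaling. The raw signals of its 1 probe were dim as well, 153.1 to 161.6 in NSCs and 142.2 to 147.8 in neurons. Without background correction the Rcor1 difference was -0.23 (adjusted p = 0.0137).

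The unequal change of the scaffolds was tested within each array, as the log2 value of the Rcor2 probe minus that of the Rcor1 probe. The size of such a difference between probes has no meaning as a level, but its shift between groups does. It was -1.11 to -0.53 in NSCs and 0.11 to 0.55 in neurons, without overlap, with means of -0.98 ± 0.25 (SD, n = 5) and 0.34 ± 0.22 (SD, n = 3). The shift was 1.32, and the exact two-sided permutation test gave p = 0.0179, which is the smallest that the 56 splits of the arrays allow, and 0.0179 after adjustment over the 2 pairs tested. Every neuron array was already above every NSC array for Rcor2 and below every one for Rcor1. This p was therefore fixed by those results and is no further support. Pairs with Rcor3 or Sin3b could not be tested for want of a tested probe. In the authors' values the shift was 0.75.

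Hmg20b was the member that changed most. It encodes BRAF35, a protein with an HMG box that sits in the CoREST complex and helps it bind DNA. Its signals were 393.9, 405.8, 411.7, 482.6 and 420.8 in NSCs and 187.6, 206 and 213.4 in neurons. Every neuron array was below every NSC array. After normalization the values were 8.49, 8.61, 8.48, 8.85 and 8.61 against 6.92, 6.97 and 7.22, a gap of 1.26 between the groups. The means were 8.61 ± 0.15 (SD, n = 5) and 7.04 ± 0.16 (SD, n = 3), a difference of -1.57 (SE 0.12, 95% interval -1.83 to -1.31, limma adjusted p = 5.08e-07), or 2.97-fold lower (2.48 to 3.55). A lower signed difference was found for 6.40% of tested genes. It was called under all 27 alternatives, between -1.68 and -1.24.

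**Figure D2:**
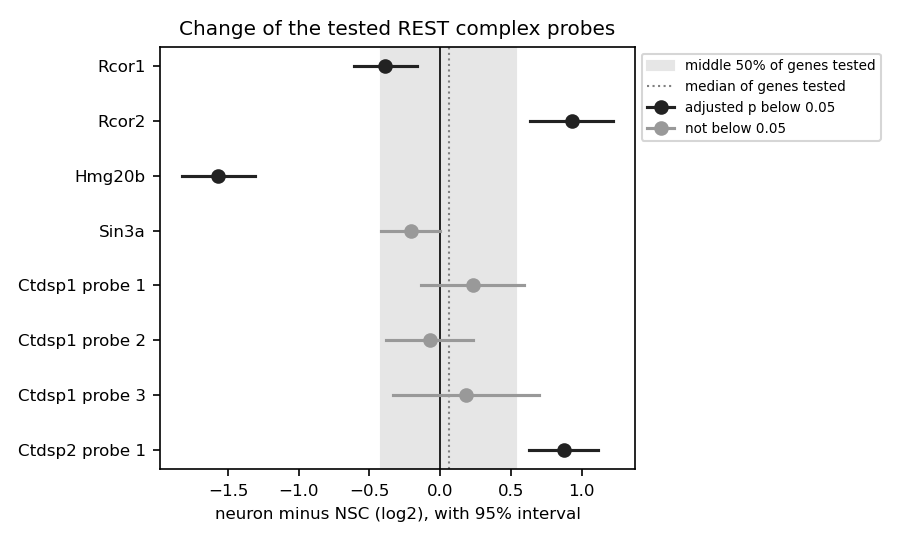
Neuron minus NSC difference in log2 intensity (horizontal axis) for each tested probe of the members, with the 95% interval as a bar, over a grey band that holds the middle 50% of tested genes. Hmg20b at -1.57 lies below the band, Rcor2 at 0.93 and Ctdsp2 at 0.87 lie above it, and the 3 probes of Ctdsp1 have intervals that include 0.

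The genes whose pattern over the 8 arrays was most like these were found by Pearson correlation over all tested genes, as a description of arrays that fall into 2 groups. For Hmg20b they were Ccne2, a cyclin of the start of DNA replication (r = 0.996, difference -2.20), Lin54, a DNA-binding subunit of the DREAM complex that controls cell-cycle genes (r = 0.996, difference -0.90), and Piga, which starts the synthesis of lipid anchors for membrane proteins (r = 0.995, difference -1.80). For Rcor2 they were Duxbl1, a homeobox gene (r = 0.989, difference 0.57), Insm1, a zinc-finger factor of differentiating neuroendocrine and neuronal cells (r = 0.988, difference 1.48), and Bri3 (r = 0.986, difference 0.59). All 6 were called in the same direction as the member they resemble, which picking them by correlation made nearly certain. Ccne2 was detected in NSCs alone and was at least 3.93-fold lower in neurons. Duxbl1 was detected in neurons alone and was at least 1.16-fold higher there.

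Of the Sin3 scaffolds, Sin3a gave bright signals in both groups and Sin3b none above background. Sin3a joins deacetylases to many repressors, REST among them. Its log2 intensities were 10.41, 10.44, 10.41, 10.24 and 10.31 in NSCs and 10.04, 10.24 and 10.18 in neurons, so the highest neuron array reached the lowest NSC array. The difference was -0.21 (SE 0.10, 95% interval -0.42 to 0.00177, limma adjusted p = 0.0772), which did not pass the test but leaves room for a fall of up to 0.42. It was called lower in 4 of the 27 alternatives, among which the authors' values and no background correction are 1 and the same result (-0.20, adjusted p = 0.0391). With median scaling it was 0.0003 (adjusted p = 0.998). Relative to the median of all genes it was -0.27 and, with median scaling, -0.23. The Sin3b probe had signals of 70.2 to 86.2 in NSCs and 85.1 to 89.6 in neurons, with detection p from 0.0150 to 0.713. It was not well above background on any array.

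The small CTD phosphatases differed from each other. Ctdsp2 rose, with signals of 899.5, 743.1, 798.2, 790.8 and 746.1 in NSCs and 1499.9, 1887.3 and 1469.3 in neurons. Its log2 intensities were 9.79, 9.56, 9.54, 9.63 and 9.52 against 10.37, 10.67 and 10.40, with no overlap and a gap of 0.58. The means were 9.61 ± 0.11 (SD, n = 5) and 10.48 ± 0.17 (SD, n = 3), a difference of 0.87 (SE 0.11, 95% interval 0.63 to 1.11, limma adjusted p = 3.62e-05), or 1.83-fold (1.55 to 2.16). It was called under all 27 alternatives, from 0.78 to 1.06. The second Ctdsp2 probe was not well above background on any array, with signals of 68.5 to 85.1, so the rise rests on 1 probe.

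Ctdsp1 had 3 tested probes and none passed the test. The brightest gave 7.20, 6.83, 6.79, 7.40 and 6.78 in NSCs and 7.0, 7.39 and 7.29 in neurons. The groups overlapped, and the difference was 0.23 (SE 0.16, 95% interval -0.13 to 0.59, limma adjusted p = 0.244). The second probe gave -0.07 (-0.38 to 0.23, adjusted p = 0.664). The third gave 0.18 (-0.34 to 0.70, adjusted p = 0.519) and was not above background on NSC 2 and NSC 3. With median scaling the brightest probe was called higher, at 0.44 (adjusted p = 0.0300). The log2 value of the Ctdsp2 probe minus that of the brightest Ctdsp1 probe was 2.23 to 2.75 in NSCs and 3.11 to 3.37 in neurons, a shift of 0.64 (exact two-sided permutation p = 0.0179, the smallest possible, and 0.0179 adjusted over the 2 pairs).

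The small phosphatase genes are also hosts of the miR-26 microRNAs, whose hairpins lie within them. In RefSeq GRCm38.p6, Mir26b lies inside the span of Ctdsp1, Mir26a-2 inside Ctdsp2 and Mir26a-1 inside the related Ctdspl. The mature sequences are shown because they carry the same seed, with bases 2 to 8 in capitals, although their hosts gave different readings here.
mmu-miR-26b-5p, in Ctdsp1, chr1:74394324-74394344, plus strand: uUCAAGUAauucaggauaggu
mmu-miR-26a-5p, in Ctdsp2, chr10:126995543-126995564, plus strand: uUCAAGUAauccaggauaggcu
mmu-miR-26a-5p, in Ctdspl, chr9:119031811-119031832, plus strand: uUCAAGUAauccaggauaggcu
The 2 kinds of mature sequence differed at 2 of 21 compared positions. The array read the host transcripts alone, and the microRNAs were not measured.

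**Figure D3:**
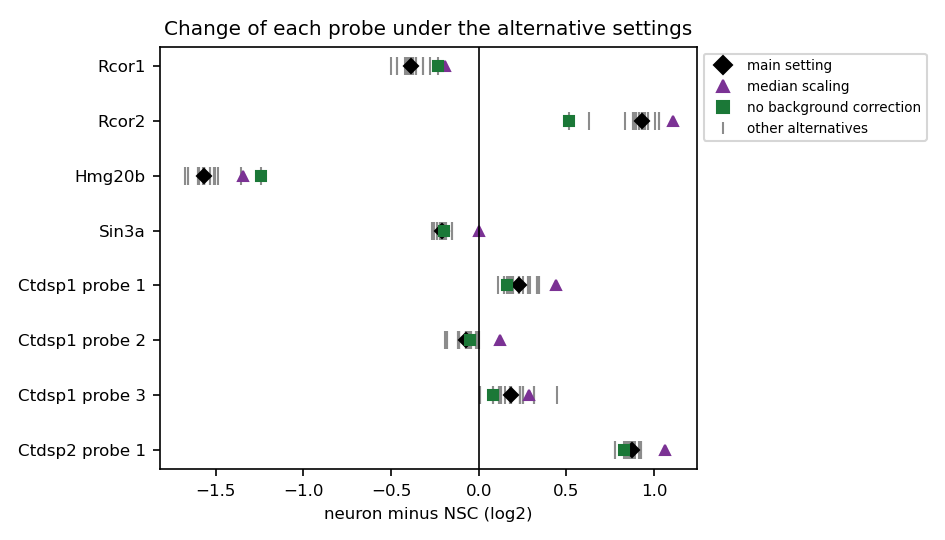
Neuron minus NSC difference in log2 intensity (horizontal axis) of each tested member probe in the main setting and under each alternative. Hmg20b, Rcor2 and Ctdsp2 keep their side of 0 at every point, Rcor1 reaches -0.19 with median scaling, and Sin3a reaches 0.0003.

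Partners of the members were described from lists of related genes. Beside the counts of every list below, 35.4% of all tested genes were higher in neurons and 29.2% lower, with a median of 0.06. Of 17 CoREST partners, 14 had a probe and 9 were tested, of which 2 were higher in neurons, 1 was lower and 6 did not pass, with a median difference of 0.17. Kdm1a, the histone demethylase of the complex, had log2 values of 10.46, 10.59, 10.93, 10.45 and 10.44 in NSCs and 10.86, 11.01 and 11.22 in neurons, and the groups overlapped through NSC 3. Its difference was 0.45 (SE 0.14, limma adjusted p = 0.0128). Hdac1, a deacetylase, gave 9.50, 9.44, 9.52, 9.44 and 9.63 against 8.82, 8.92 and 9.01. It fell by 0.59 on the log2 scale (adjusted p = 0.000221), with no overlap. Hdac2, its close relative in the same complexes, was higher by 0.35 (adjusted p = 0.0212). Without Neuron 3 both rises lost their call, with 0.36 (adjusted p = 0.0664) for Kdm1a and 0.31 (adjusted p = 0.0807) for Hdac2, and with median scaling 5 partners were called higher. The corepressor genes Zmym2, Ctbp1 and Zfp217 were not above background on any array.

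Of 14 Sin3 partners, 12 had a probe and 9 were tested. In that list 5 were higher in neurons, 1 was lower and 3 did not pass, with a median of 0.28. Ing2, whose PHD finger reads methylated histone H3, was higher by 0.63 (limma adjusted p = 0.000518), and Sap130, a Sin3-associated protein, by 0.59 (adjusted p = 0.00216). Rbbp7, a histone-binding protein shared by several chromatin complexes, was lower by its brightest probe (-0.63, adjusted p = 0.000541), and 2 others gave -0.60 and -0.40. A further tested probe was above background on 3 NSC arrays and no neuron array and did not pass (adjusted p = 0.0528). The count of higher partners was 3 without Neuron 2 and 3 with the replicate number as a block. Sap18, Arid4a and Sinhcaf were not above background on any array.

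The DNA-binding proteins of the Max network that recruit Sin3 changed in both directions. Of 6 listed, 4 were tested, with 2 higher and 2 lower. Max, the common partner, was higher by 0.65 (limma adjusted p = 5.52e-05) and Mxd4 was lower, at -0.62 (adjusted p = 0.00813). Mxi1 was detected in neurons alone and was at least 1.43-fold higher there, and Mxd3 was detected in NSCs alone and was at least 1.99-fold lower in neurons. For such a bound, the bright group's mean was set against the lowest detected level on each array of the dim group, or the probe's own value where that was higher. Since only 1 group took Mxi1 and Mxd3 past the filter, their direction was given by it.

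Genes that control REST itself were mostly not readable. Of 8 listed, 3 were tested and 2 were higher. Btrc, the F-box protein that marks REST for destruction, had 1 probe above background, which gave 8.89, 8.63, 9.03, 8.97 and 8.96 in NSCs and 9.51, 9.43 and 9.50 in neurons. The groups did not overlap, and the difference was 0.58 (SE 0.11, limma adjusted p = 0.000678). Terf2, a telomere protein that also binds REST, was higher by 0.53 (adjusted p = 0.00540). Usp7, which removes ubiquitin, gave 0.16 (adjusted p = 0.282). Srrm4, the splicing factor that makes the truncated neuronal form of REST, was not above background on any array, nor were Fbxw11 and Usp15.

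All 6 relatives of the CTD phosphatases were tested, with 2 higher, 2 lower and 2 not passing. Ctdspl2 was higher by 0.92 (limma adjusted p = 3.76e-05) by its brightest probe, while its other probe gave 0.12 (adjusted p = 0.424), so its probes disagree. Rpap2, a phosphatase of the polymerase CTD, was higher by 0.62 (adjusted p = 0.000188). Ctdspl, the closest relative of the member phosphatases, was lower, at -0.39 (adjusted p = 0.0193), and lost its call without Neuron 2 (-0.26, adjusted p = 0.106) and with median scaling (-0.20). Ctdnep1, a phosphatase of the nuclear envelope, was lower at -0.31 (adjusted p = 0.0402), a call that was lost when any one of NSC 1, NSC 4, NSC 5 or the 3 neuron arrays was left out (adjusted p from 0.0529 to 0.121). The Ctdnep1 call was also lost with no filter on dim probes (adjusted p = 0.0633) and with median scaling, where the difference was -0.08 (adjusted p = 0.586).

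**Figure D4:**
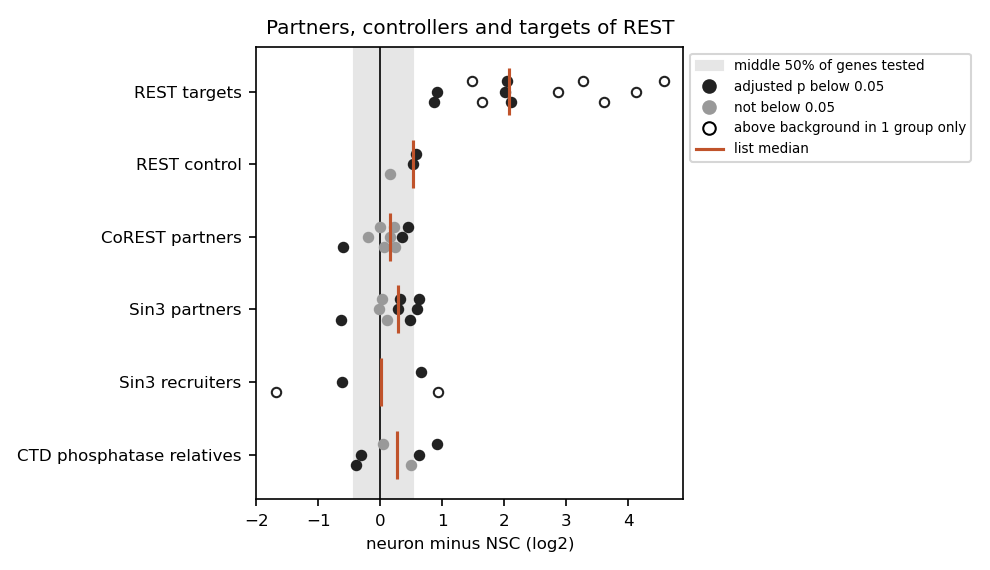
Neuron minus NSC difference in log2 intensity (horizontal axis) of every tested gene, by list, with the middle 50% of tested genes in grey, a red line at each list's median and open circles for genes above background in 1 group only. The 12 tested REST targets lie on the higher side with a median of 2.08, 7 of them as open circles whose NSC side is at background, and the partner lists spread to both sides of 0.

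Genes known as REST targets were higher in neurons wherever they could be tested, and the list was chosen with earlier results of these data known, so it is not independent evidence of its direction. Of 27 listed, 24 had a probe and 12 were tested. A set of 7 of these 12 were detected on no NSC array, so they passed the filter only through the neurons and had to differ. With no filter on dim probes, 13 of the 24 targets with a probe were called higher, and the median over the 24 was 0.81, beside 2.08 over the 12. Over all genes without that filter, 2669 of 16593 were called higher, with a median of 0.001. Among those 7 targets Scg2, a secretory granule protein, had 4.46 to 4.87 in NSCs, at background, and 9.12 to 9.26 in neurons. It was at least 15.8-fold higher there. Cplx1, a regulator of vesicle fusion, was at least 12.3-fold higher. The other 5 were detected on all 8 arrays, so the NSC cultures already gave a measurable signal. Which cells of those cultures gave it was not tested.

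Syn1, a synaptic vesicle protein, had log2 values of 7.27, 6.28, 6.70, 6.94 and 6.61 in NSCs and 8.83, 8.88 and 8.89 in neurons. Its difference was 2.11 (SE 0.18, limma adjusted p = 1.91e-06), and a second probe gave 1.96. Gria2, an AMPA receptor subunit, had 7.91 to 8.34 in NSCs and a mean of 8.16 there against 10.17 in neurons. Its difference was 2.01 (adjusted p = 1.94e-07), and a second probe gave 2.05. In both genes every neuron array was above every NSC array. Bdnf, a neurotrophin, was higher by 2.05 (adjusted p = 1.46e-08) on its 1 probe above background, and Mapk8ip1, a scaffold of the JNK pathway, by 0.91 (adjusted p = 4.17e-06). Syp, a vesicle membrane protein, was higher by 0.86 (adjusted p = 5.47e-05). A further 9 targets were not above background on any array, among them Stmn2, Snap25 and L1cam.

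Promoters were searched for letters of the RE1 element. The motif was TCAGCACC, then any 2 bases, then GGACAG, read on both strands with at most 1 mismatch at its 14 fixed letters, in the window from 250 bases before to 50 bases after each start in RefSeq GRCm38.p6. Such a match was present in 28 of 27025 genes (0.104%) and in 3 of the 21 listed REST targets with a window (14.3%). The targets were listed as genes already known for REST, so a higher share among them is no independent evidence. None of the 8 members with a window (12 windows) had one, and their nearest stretches had 3 to 6 mismatches. That says only that these letters are not in those windows. The stretches below are shown because they carry the match, in capitals, in genes that were tested. They were picked with their values known. The matches in Dcun1d4, Dner, Hrh3, Lca5 and Tmem179, which were also tested, are not printed. Each sequence is in the sense of its gene.
Celsr3, chr9:108825889-108825964, plus strand: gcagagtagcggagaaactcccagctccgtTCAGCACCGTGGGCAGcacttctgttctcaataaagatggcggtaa
Syn1, chrX:20921104-20921168, minus strand: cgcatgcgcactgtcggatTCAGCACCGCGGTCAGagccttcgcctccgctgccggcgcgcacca
Gria2, chr3:80802960-80803035, minus strand: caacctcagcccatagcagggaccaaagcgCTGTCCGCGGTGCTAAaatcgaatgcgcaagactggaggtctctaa
Fbll1, chr11:35799027-35799102, minus strand: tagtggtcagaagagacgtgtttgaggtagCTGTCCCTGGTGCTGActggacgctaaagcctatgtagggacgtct
Scamp5, chr9:57468168-57468243, minus strand: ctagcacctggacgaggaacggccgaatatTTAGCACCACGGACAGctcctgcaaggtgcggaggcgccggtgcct
Crip2, chr12:113140052-113140127, plus strand: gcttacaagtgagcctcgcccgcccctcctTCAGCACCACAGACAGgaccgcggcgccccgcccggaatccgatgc
In Celsr3, Syn1, Scamp5 and Crip2 the motif runs with the gene, and in Gria2 and Fbll1 it runs against it. The match in Fbll1 has 0 mismatches and those in the other 5 have 1.

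Of the 28 genes with a match, 11 were tested, and 9 were higher in neurons and 2 lower. Over all tested genes 35.4% were higher and 29.2% lower. The median of the 11 was 1.65, or 1.23 with genes detected in 1 group at their bound, beside 0.06 over all tested genes. A total of 4 of the 11 were detected on no NSC array, so they passed the filter through neurons alone and had to differ. Among these, Celsr3 was at least 5.85-fold higher and Fbll1, a relative of the nucleolar methyltransferase fibrillarin, at least 2.35-fold. Hrh3, a histamine receptor, was at least 1.23-fold higher and Tmem179 at least 1.13-fold. The other 7 were detected on all 8 arrays, with 5 higher and 2 lower. Of the higher ones, Syn1 and Gria2 are on the target list, as is Celsr3. Scamp5, a membrane protein of secretory vesicles, gave 1.90, Dner, a Notch-related receptor of neurons, 1.65, and Dcun1d4 0.60. The 2 lower genes were Crip2, a LIM-domain protein, at -0.98 and Lca5, a ciliary protein, at -0.76. With up to 2 mismatches 161 genes had a match and 36 were tested, of which 22 were higher, 6 lower and 8 did not pass, with a median of 0.52, or 0.43 with the bounds. The lowest of them was Mcm5, a subunit of the replicative helicase, at -3.86. These genes outside the target list were named after their values were seen, and a match of letters is a description, not a binding site.

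**Figure D5:**
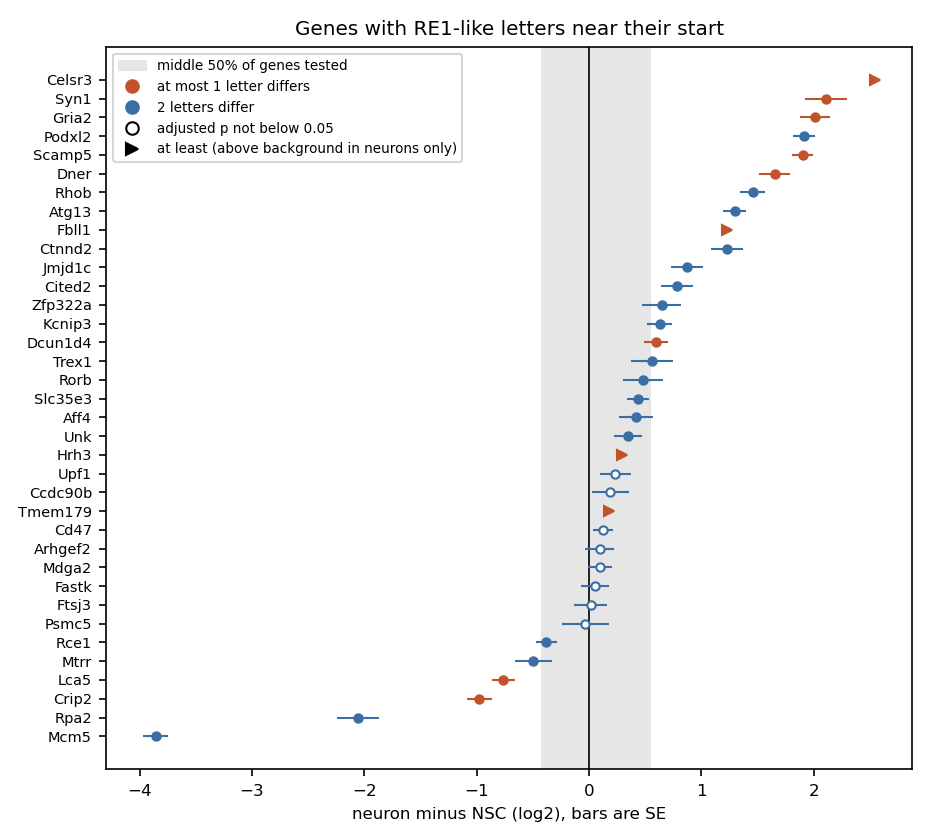
Neuron minus NSC difference in log2 intensity (horizontal axis, bars are SE) for the 36 tested genes with an RE1-like stretch in the promoter window, orange for at most 1 mismatch and blue for 2, open circles where the test was not passed and triangles at the lower bound for the 4 genes detected in neurons alone. The orange circles run from -0.98 for Crip2 to 2.11 for Syn1, with 5 above 0 and 2 below, and the lowest blue point is Mcm5 at -3.86.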

How the data were processed

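For each probe the authors deposited its average bead signal, an intensity on a linear scale, neither background-subtracted nor scaled. They deposited beside it a detection score, a fraction from 0 to 1 and 1 minus this score is the detection p used here. The authors' deposited log2 values were the same as quantile-normalized log2 signals with no background step, to within 5.00e-09, and their median was 6.36 on every array. The submitters' processing notes name limma, and the sources used here do not name the scanner software.

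From the signals, neqc in limma 3.58.1 (R 4.3.3) used the detection p to fit the background, with an offset of 16, followed by quantile normalization of the 8 arrays and log2. The offset shrinks the differences of dim probes. The test took the 10499 probes whose detection p was below 0.01 on 3 arrays or more, with group as the only term, and a gene was represented by its brightest tested probe. The platform table pairs 23978 probes with 1 gene, 0 with several and 1719 with none; 23962 matched the RefSeq gene table. The procedure was also run on simulated data with far fewer changed probes than were called here, which is no check of the calls above. The number of arrays limits the precision.

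The members and the lists were chosen with earlier results of these data known. Named genes were all members, the 2 largest called changes of each list in its majority direction with the 1 largest in the other (2 in each where equal), list genes not above background, and the 3 genes most like the members with the largest rise and fall. The REST targets other than Scg2 and Cplx1, Usp7, the cell type markers and the genes with a promoter match were named after their values were seen. Alternatives were other background corrections, scalings, filters, variance models and probe rules, the authors' values, a replicate block and leaving out each array. They are not all separate checks. The authors' values repeat the setting with no background correction, and each left-out array was run with detection on 3 and on 2 arrays.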

Additional observations from a re-analysis of the deposited data

How the results depend on the processing

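Of the members, 2 were called higher under every alternative run except median scaling, which gave 3 by adding Ctdsp1. The number called lower was 1 with median scaling, where Rcor1 lost its call, and 3 by adding Sin3a in the authors' values, with no background correction, with a larger offset and with a trended robust variance. Median scaling moved the median of all genes from 0.06 to 0.23 and the share of calls that were higher from 54.8% to 66.1%, and cyclic loess gave 49.8%. The shifts between the Rcor2 and Rcor1 probes and between the Ctdsp2 and Ctdsp1 probes kept their direction and call, at 1.21 to 1.44 and 0.55 to 0.72 when each array was left out. REST targets called higher numbered 5 with detection required on all 8 arrays and 5 to 12 when each array was left out, since without a neuron array the genes detected in neurons alone miss the filter. With detection then required on 2 arrays the count was 12 or 13. The labels number the arrays in both groups, and the deviations of same-numbered arrays from their group means correlated at -0.02 to 0.01. That shows no shared deviation by number. It cannot tell whether same-numbered arrays shared a culture, which the labels do not say. With the replicate number as a block, members called stayed at 2 higher and 2 lower, and Rcor1 was -0.42 (limma adjusted p = 0.0348). Ctdspl, Ctdnep1, Sap30 and Sap30l lost their calls under that block. Signals near background limit Rest, Sin3b and the sizes of the Rcor2 rise and the Rcor1 fall.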
